A study of Homo sapiens with 4 samples.

Results

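The family of vascular endothelial growth factors (VEGF) was examined in CD31+ cells that had or had not been made to overexpress the transcription factor HAND1. Its members were chosen by gene symbol: 4 ligands (VEGFA, VEGFB, VEGFC and PGF), 3 receptor tyrosine kinases (FLT1, KDR and FLT4) and 2 coreceptors (NRP1 and NRP2), which makes 9 of the 58229 genes of the table. The cells derived from H1 (a line of human embryonic stem cells) and were collected at day 8 of hematopoietic differentiation. Control cells (2 libraries) had no added HAND1 and HAND1_OE cells (2 libraries) overexpressed it; both had been cultured with activin A and BMP4 and then with VEGF at 40 ng/ml and bFGF at 50 ng/ml. The vector and promoter that drove HAND1 are not given in the sources used here, and a single cell line was used. The labels do not say that the 2 libraries of a group came from separate cultures, so p-values measure the spread between these libraries, which may be technical. The table names no unit, and its values were taken as FPKM, fragments scaled to transcript length and library depth, so that levels of different genes can be set side by side.

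VEGF ligands are secreted dimers that bind receptor tyrosine kinases on endothelial cells and drive their formation, survival and sprouting. VEGFA acts mainly through KDR (VEGFR2), while FLT1 (VEGFR1) binds VEGFA tightly but signals weakly and also binds VEGFB and PGF. VEGFC acts through FLT4 (VEGFR3), and the neuropilins NRP1 and NRP2 hold ligand beside the receptors and also serve as receptors for class 3 semaphorins. KDR marks the mesoderm and the hemogenic endothelium from which the first blood cells arise. The added VEGF was protein, so the RNA values cover only what the cells themselves transcribed.

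HAND1 itself was at 12.1 and 14.3 FPKM in Control, against 520.5 and 517 FPKM in HAND1_OE, a difference of log2(FPKM + 1) of 5.20 (standard error 0.152, adjusted p = 0.00145). The libraries held 13989 to 14542 genes at 1 FPKM or more. Of 14622 genes tested, 299 were called higher and 309 lower in HAND1_OE, and their median difference was -0.078. Depth per library is unknown because the table holds no counts. For a single gene, exact permutation of 2 against 2 libraries gives no two-sided p under 0.333, so single-gene tests rest on the spread that limma estimates across all genes.

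Of the 9 genes, VEGFA rose with HAND1 and no other member passed the test in either direction. The count called was thus 1 of 9, where 4.16% of all genes tested were called (2.04% higher and 2.11% lower). KDR, the most abundant member, stayed within a narrow range in all libraries. The libraries of the groups did not overlap for 7 of the 9 genes, beside 46.3% of all genes tested, and an unadjusted p under 0.05 was found for 5 of the 9, beside 17.4%. Members with a positive difference were VEGFA, PGF, NRP2 and VEGFB, and those with a negative one were VEGFC, NRP1, FLT4, FLT1 and KDR. All 9 reached 1 FPKM in every library and were tested.

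**Figure D1:**
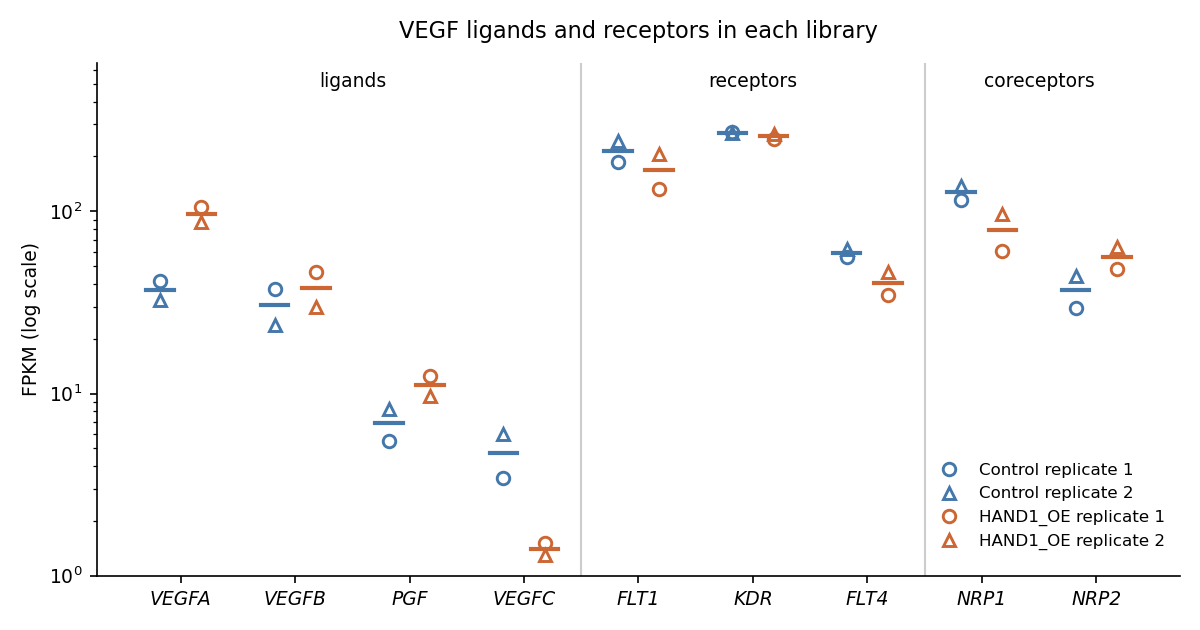
FPKM on a log axis of each VEGF ligand, receptor and coreceptor in the 2 Control libraries (blue) and 2 HAND1_OE libraries (orange); circles are replicate 1, triangles replicate 2, and bars the group means. VEGFA lies at 32.6 and 41.5 FPKM in Control, against 87.5 and 105 FPKM in HAND1_OE, while KDR stays between 251 and 272 FPKM.

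Promoters were taken from RefSeq (GRCh38.p14) for the 6 of 9 genes that matched, as the 250 bases before 7 starts, of which PGF has 2. VEGFA, the called member, had no window, nor had FLT4 or NRP1, so the counts below do not cover them. The GC box GGGCGG, a site of the factor SP1 that is known to drive the KDR promoter, was found on either strand in 7 of 7 of these windows and in 42.6% of the 35116 RefSeq windows of the same length. The 7 windows had a GC content of 65.2% to 82.8%, and the 2 PGF windows overlap and share a GC box. Whether the count goes beyond what base composition gives was not tested. The E-box CANNTG, the same on both strands and the core to which HAND1 binds with its E protein partners, was in 4 of the 7 and in 61.8% of all windows. No E-box overlapped a GC box in the 7 windows, overlapping GC boxes were counted separately, and a match or its lack says only which letters stand there. KDR, the most abundant member, had 1 E-box that begins 175 bases before the start, and VEGFC, the member with the largest negative difference, had 0. FLT1 and a PGF window also had 0, while NRP2, VEGFB and the other PGF window had 1 each. None of the genes with a window was called, so no link between E-boxes and the differences is drawn. The windows of KDR and VEGFC are shown 5′ to 3′ on the gene's strand as RefSeq gives it. GC boxes on either strand are in capitals, and E-boxes are not marked. The bases after the KDR start were found in a GENCODE transcript of KDR, whereas the RefSeq start of VEGFC lies outside the GENCODE gene, so its strand was not checked in that way. The first lies at chr4:55125596-55125845 (minus strand) and the second at chr4:176792923-176793172 (minus strand).
KDR: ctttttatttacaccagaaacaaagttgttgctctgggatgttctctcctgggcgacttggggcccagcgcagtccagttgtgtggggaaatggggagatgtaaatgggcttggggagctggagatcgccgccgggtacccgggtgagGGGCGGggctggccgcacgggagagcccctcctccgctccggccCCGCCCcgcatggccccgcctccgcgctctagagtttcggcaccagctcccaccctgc
VEGFC: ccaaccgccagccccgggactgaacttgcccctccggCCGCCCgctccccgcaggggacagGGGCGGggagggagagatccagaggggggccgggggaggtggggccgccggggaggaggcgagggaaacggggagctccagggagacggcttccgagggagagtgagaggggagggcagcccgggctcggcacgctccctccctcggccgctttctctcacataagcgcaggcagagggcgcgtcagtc

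Among the ligands, VEGFA, the main driver of blood vessel growth, was at 41.5 and 32.6 FPKM in Control, against 105 and 87.5 FPKM in HAND1_OE. The lower HAND1_OE library was well above the higher Control library. The mean went from 37.1 ± 6.30 to 96.3 ± 12.4 FPKM (SD, n = 2), a ratio of 2.60. On the log2(FPKM + 1) scale the difference was 1.36 (standard error 0.186, 95% interval 0.895 to 1.82), with a limma adjusted p = 0.0246. Without Control replicate 2 the difference was 1.19 and the adjusted p = 0.0822, so the call needs that library, and without the filter on low values the adjusted p was 0.172. VEGFA (ENSG00000112715.21) spans 43770184 to 43786487 of GRCh38 chromosome 6. Its splice forms are summed in the gene value.

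VEGFC, the ligand best known from lymphatic vessels, moved the other way. It was at 3.45 and 6.02 FPKM in Control, against 1.51 and 1.30 FPKM in HAND1_OE, with no overlap between the groups. The difference was -1.22 (standard error 0.268, 95% interval -1.89 to -0.550), which missed the threshold (adjusted p = 0.0787). The pseudocount of 1 weighs on a gene this low: with 0.1 the difference was -1.63 (adjusted p = 0.0738). Without Control replicate 2 it was -0.889.

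PGF, a ligand of FLT1 known from the placenta, was at 5.51 and 8.26 FPKM in Control, against 12.5 and 9.69 FPKM in HAND1_OE. The groups did not overlap, but the upper Control and the lower HAND1_OE library were close, and the difference of 0.63 (95% interval 0.041 to 1.22) did not pass (adjusted p = 0.256). Without Control replicate 1 it was 0.379. VEGFB, another FLT1 ligand, was at 37.3 and 23.8 FPKM in Control, against 46.4 and 29.9 FPKM in HAND1_OE, so its groups overlapped. Its difference of 0.31 (95% interval -0.425 to 1.05, adjusted p = 0.696) was smaller than the gap between libraries of the same group, and it ran from -0.0014 (Control replicate 2 left out) to 0.626 (Control replicate 1 left out). VEGFD, the remaining ligand that binds FLT4, was at 0.132 to 0.724 FPKM in Control and 0.0250 to 0.0871 FPKM in HAND1_OE and was too low to be tested.

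The receptors KDR and FLT1 were the most abundant members in each of the 4 libraries. KDR, the main signalling receptor for VEGFA (ENSG00000128052.8, GRCh38 chromosome 4, 55078477 to 55125589), was at 272 and 268 FPKM in Control, against 251 and 267 FPKM in HAND1_OE. The groups barely lay apart. The difference was -0.061 (standard error 0.148, 95% interval -0.428 to 0.306, adjusted p = 0.896), and its sign turned after median-ratio scaling (0.050). KDR lay above 98.3% of the genes tested in Control and above 98.1% in HAND1_OE.

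FLT1 was at 186 and 245 FPKM in Control, against 132 and 205 FPKM in HAND1_OE. Its groups overlapped, and the difference of -0.37 (95% interval -1.03 to 0.281) did not pass (adjusted p = 0.565). Without HAND1_OE replicate 1 it was -0.057 and without HAND1_OE replicate 2 it was -0.688. The gene value does not separate the membrane receptor from its soluble form, which captures ligand without signalling. FLT4, the VEGFC receptor, was at 56.2 and 62.1 FPKM in Control, against 34.8 and 46.2 FPKM in HAND1_OE, with both HAND1_OE libraries lower. Its difference of -0.55 (95% interval -1.01 to -0.086) had an unadjusted p = 0.0276 and an adjusted p = 0.214, and was -0.347 without HAND1_OE replicate 1.

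The coreceptors lay apart in opposite directions. NRP1, which pairs with KDR in the response to VEGFA, was at 116 and 138 FPKM in Control, against 60.6 and 97.0 FPKM in HAND1_OE. NRP2, which pairs with FLT4, was at 29.4 and 44.4 FPKM in Control, against 48.3 and 63.5 FPKM in HAND1_OE. Both HAND1_OE libraries were lower for NRP1 and higher for NRP2. The differences were -0.71 for NRP1 (95% interval -1.35 to -0.082, adjusted p = 0.233) and 0.60 for NRP2 (95% interval -0.016 to 1.22, adjusted p = 0.301), so neither passed. With the replicate number as a block the NRP2 adjusted p was 0.0379 and that of NRP1 0.0509, but the labels do not say that equal numbers mark paired samples. Single libraries moved both: the NRP1 difference was -0.378 without HAND1_OE replicate 1, and that of NRP2 was 0.313 without Control replicate 1.

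**Figure D2:**
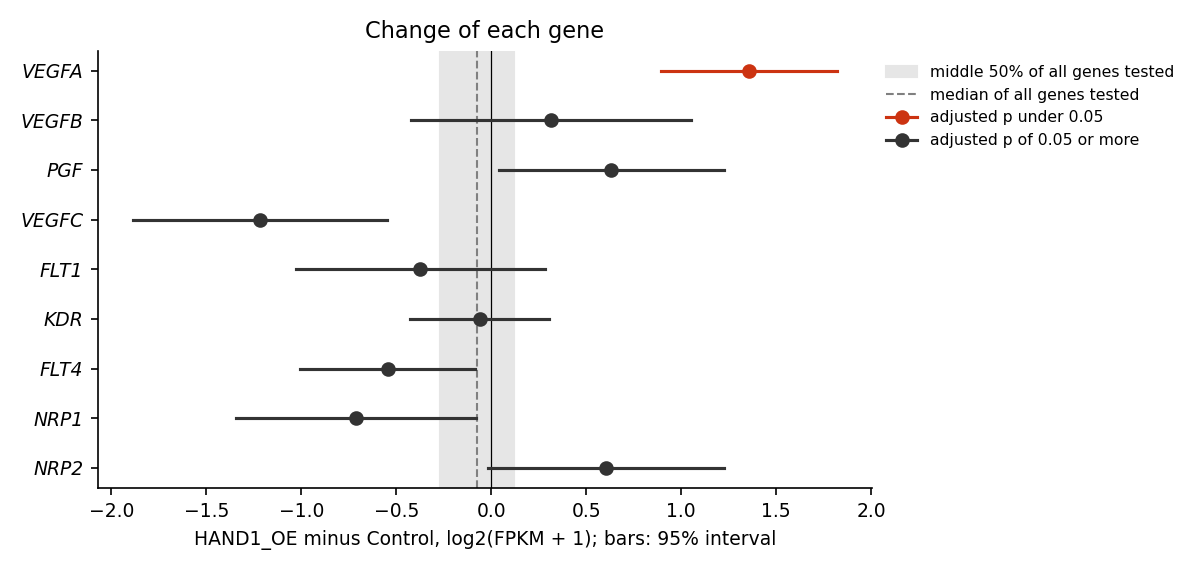
Difference of log2(FPKM + 1) between HAND1_OE and Control for each gene (points) with its 95% limma interval (bars); the grey band runs between the quartiles of all genes tested and the dashed line their median of -0.078. VEGFA (red) is the gene with an adjusted p under 0.05, and the intervals of VEGFC, FLT4, NRP1 and PGF exclude 0 before adjustment.

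Ligands were compared with receptors and coreceptors as groups. The 4 ligands had a median difference of 0.47, with 1 called higher and 0 called lower, and the 5 receptors and coreceptors a median of -0.37, with 0 called. The summed ligand level was 87.8 and 70.7 FPKM in Control and 166 and 128 FPKM in HAND1_OE, so the groups lay apart. The summed receptor level was 515 and 575 FPKM in Control and 418 and 519 FPKM in HAND1_OE, and these overlapped. Ligand transcripts amounted to 0.133 and 0.0934 of the receptor and coreceptor total in Control and to 0.314 and 0.189 in HAND1_OE. As a mean over genes on the log2 scale, the ligands lay below the receptors and coreceptors by -2.77 and -2.99 in Control and by -2.01 and -2.78 in HAND1_OE. The groups overlapped, and the shift of 0.489 between their means was 0.103 without HAND1_OE replicate 1 and 0.875 without HAND1_OE replicate 2. VEGFA weighs most in the summed ligand level, whereas the mean over genes gives each gene equal weight.

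Ratios within a library do not depend on its scaling and show how the mixture of members differed. VEGFA made up 47.3% and 46.1% of the ligand FPKM in Control and 63.4% and 68.2% in HAND1_OE, while VEGFC made up 3.93% and 8.51% in Control and 0.911% and 1.01% in HAND1_OE. VEGFA exceeded VEGFC 12.04 and 5.42 times in Control and 69.7 and 67.2 times in HAND1_OE. NRP1 exceeded NRP2 3.94 and 3.11 times in Control but 1.25 and 1.53 times in HAND1_OE. None of these proportions overlapped between the groups.

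KDR exceeded its ligand VEGFA 6.55 and 8.22 times in Control and 2.39 and 3.05 times in HAND1_OE, which also lay apart. The KDR to FLT1 ratio of 1.46 and 1.10 in Control overlapped with the 1.90 and 1.30 of HAND1_OE. FLT4 took 10.9% and 10.8% of the receptor FPKM in Control and 8.34% and 8.91% in HAND1_OE, a small difference with little spread. No p is given for these proportions, since they were built from genes whose values were known.

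**Figure D3:**
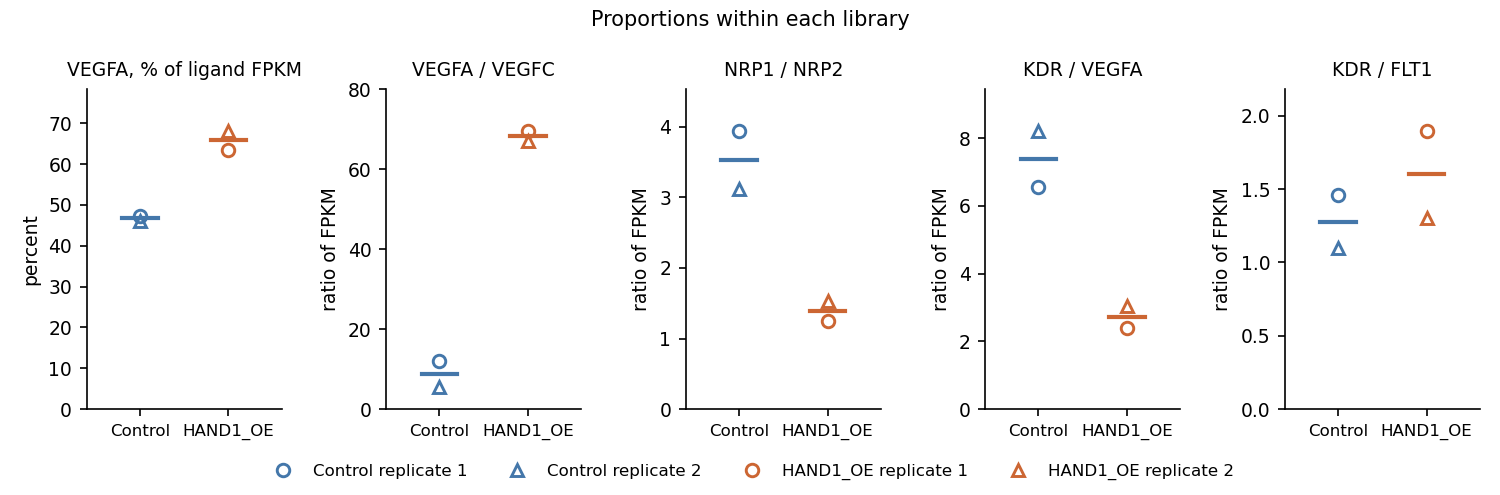
Proportions computed within each library from FPKM: the percent of the ligand total that is VEGFA, and the ratios VEGFA to VEGFC, NRP1 to NRP2, KDR to VEGFA and KDR to FLT1; circles are replicate 1, triangles replicate 2, bars group means, and every axis starts at 0. The NRP1 to NRP2 ratio is 3.11 and 3.94 in Control and 1.25 and 1.53 in HAND1_OE, and the KDR to FLT1 ratio is the panel in which the groups overlap.

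The order of levels also differed between groups. In Control it ran KDR, FLT1, NRP1, FLT4, then VEGFA, NRP2 and VEGFB, whose libraries overlapped, and last PGF and VEGFC, which overlapped as well. In HAND1_OE, VEGFA took the third place, but its libraries overlapped with those of NRP1, which in turn overlapped with NRP2. FLT4 overlapped with VEGFB, and PGF and VEGFC followed with no overlap between them. VEGFA lay above 82.8% of the genes tested in Control and 94.1% in HAND1_OE, and VEGFC above 32.0% and 10.4%. Within both groups FLT1, FLT4, NRP1 and NRP2 were each higher in the library numbered 2. VEGFA and VEGFB were higher in the library numbered 1. For KDR, PGF and VEGFC the higher library changed number between the groups. The numbers are not shown to pair the samples, so no shared spread is inferred.

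Other genes of the pathway were followed through lists. Blood marker genes were lower in HAND1_OE, as given further below, and their part in the counts of these lists was not tested. Of 156 listed genes 141 were tested, 6 were called higher and 6 lower in HAND1_OE, a share of 8.51% beside 4.16% of all genes tested. Without Control replicate 2, 5 were called higher and 2 lower.

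Downstream of the receptors, 0 of 48 signalling genes were called higher and 1 was called lower. That gene was PLCG2, a phospholipase C used mostly in blood cells, at 9.20 and 10.7 FPKM in Control, against 2.21 and 3.89 FPKM in HAND1_OE (difference -1.46, adjusted p = 0.0409). The median of the list was 0.055. Among 26 partners, phosphatases and trafficking proteins of the receptors, 1 was called higher and 2 lower. LRP1, a large endocytic receptor, rose from 14.1 to 27.3 FPKM (0.91, adjusted p = 0.0497). ITGB3, the beta 3 integrin of platelets that also joins KDR complexes, fell from 14.1 to 0.749 FPKM (-3.07, adjusted p = 0.00851). PTPN6, the phosphatase SHP-1, fell from 18.3 to 7.80 FPKM (-1.15, adjusted p = 0.0397).

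Partners of the neuropilins included 1 called gene of 8 tested. PLXNA1, a plexin that transmits semaphorin signals with NRP1, was at 10.3 and 9.98 FPKM in Control, against 33.2 and 36.7 FPKM in HAND1_OE (difference 1.69, adjusted p = 0.00780). The list's median was 0.196. PLXNA1 and NRP1 thus lay apart in opposite directions, of which the first passed the test. NRP2 lay apart in the same direction as PLXNA1 and, like NRP1, did not pass.

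Among 9 oxygen-sensing regulators of VEGFA, 1 was called higher and 0 lower. EPAS1, which encodes the hypoxia-inducible factor HIF-2 alpha, was at 26.1 and 34.2 FPKM in Control, against 74.8 and 83.0 FPKM in HAND1_OE (difference 1.37, adjusted p = 0.0220). The list's median was -0.051. HIF1A, its paralog, had a difference of 0.65 that did not pass (adjusted p = 0.174); it was chosen after its values were seen.

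Of 22 transcription factors known to act on VEGF receptor genes or beside them, 0 were called higher and 3 lower, with a median of -0.250. SOX18, a SOXF factor of endothelium, fell from 125 ± 2.99 to 49.8 ± 2.08 FPKM (SD, n = 2; difference -1.31, adjusted p = 0.0121). HHEX, a homeobox factor of endothelium and early blood, fell from 92.7 to 39.2 FPKM (-1.23, adjusted p = 0.0168). LMO2, which bridges GATA and TAL factors in blood and endothelium, fell from 146 to 61.9 FPKM (-1.22, adjusted p = 0.0258). The largest difference of the list was upward and missed the threshold (FOXF1, 1.82, adjusted p = 0.0592). FLI1 was lower and missed it too (-1.21, adjusted p = 0.0649). FOXF1 and FLI1 were chosen after their values were seen.

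Genes known to respond to VEGF gave 2 called higher and 0 lower of 21, with a median of -0.033. The list moved in both directions. EGR3 (-1.66, adjusted p = 0.0619), CXCR4 (-1.86, adjusted p = 0.0727) and NR4A2 (-1.10, adjusted p = 0.0524) were lower in both HAND1_OE libraries but missed the threshold. ADAMTS1 (0.90, adjusted p = 0.103) and PLAU (0.42, adjusted p = 0.329) were higher in both and missed it too. These uncalled genes were chosen after their values were seen. ANGPT2, a secreted modulator of the TEK receptor, was at 5.92 and 6.63 FPKM in Control, against 59.3 and 52.4 FPKM in HAND1_OE (difference 2.96, adjusted p = 0.00379). TNFAIP3, an inhibitor of NF-kappa B signalling, rose from 4.99 to 20.9 FPKM (1.92, adjusted p = 0.0354). Of 7 tested PDGF ligands and related receptors, PDGFRB, a receptor of pericytes and mesenchyme, rose from 6.51 to 29.3 FPKM (2.03, adjusted p = 0.0164) and 0 were called lower, with a list median of 0.738.

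**Figure D4:**
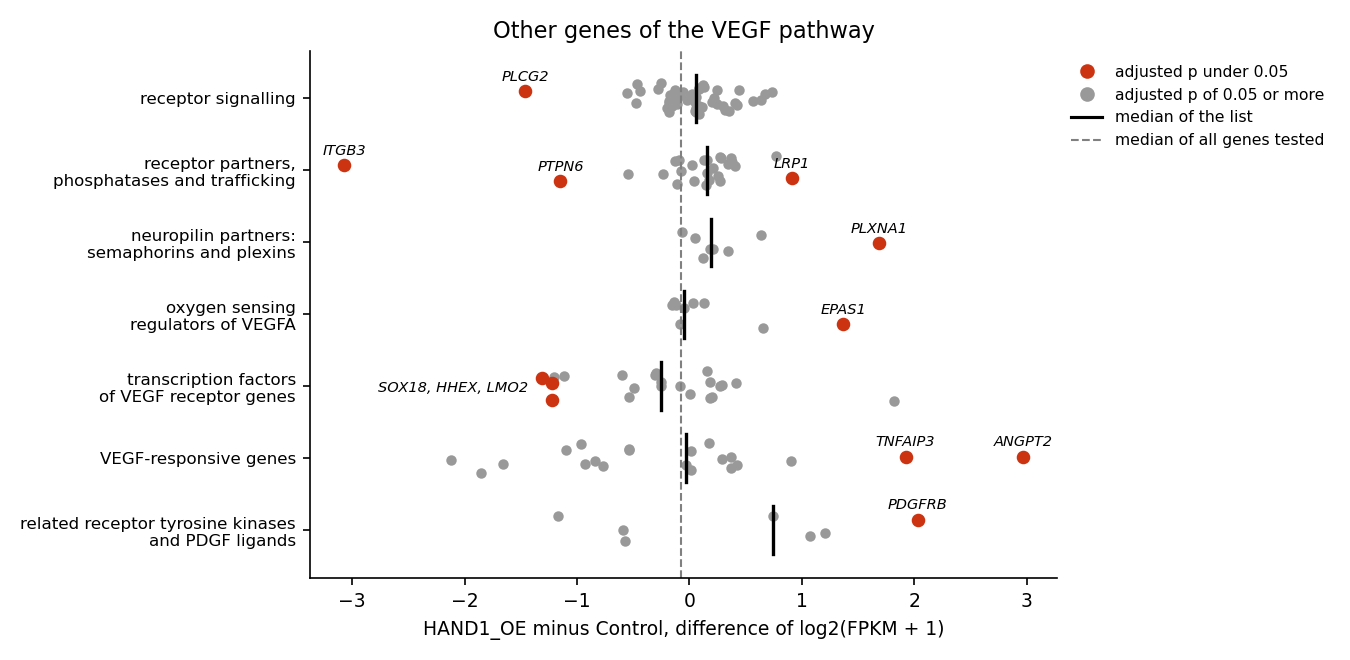
Difference of log2(FPKM + 1) between HAND1_OE and Control for each tested gene of 7 pathway lists (points; vertical place within a row has no meaning), with called genes in red and named, list medians as black bars and the median of all genes tested as a dashed line. Called genes run from -3.07 for ITGB3 to 2.96 for ANGPT2, and the signalling list, with a median of 0.055, has PLCG2 as its called gene.

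The labelled cell type was checked with marker lists, from which the members were left out. PECAM1, which encodes CD31, was at 95.5 and 141 FPKM in Control and 91.97 and 160.2 FPKM in HAND1_OE. CDH5, the endothelial cadherin, was at 261 and 222 FPKM in Control and 257 and 280.2 FPKM in HAND1_OE. The 14 endothelial genes summed to 3465 to 4186 FPKM in Control and 3652 to 3934 FPKM in HAND1_OE, with 1 called higher (VWF, 2.18) and 1 lower (CLDN5, -2.27). PLVAP weighed most in this sum (1708 and 1377 FPKM on average), so the sum says little about the other genes. EMCN (1.33, adjusted p = 0.0688) and ROBO4 (-1.32, adjusted p = 0.217) lay apart in opposite directions and did not pass. PLVAP, EMCN and ROBO4 were chosen after their values were seen. Blood lists were lower in HAND1_OE. Erythroid genes (8 of 9 called lower) summed to 843 to 1219 FPKM in Control and 53.9 to 65.5 FPKM in HAND1_OE, and megakaryocyte genes (4 of 5) to 113 to 140.0 and 9.10 to 12.8 FPKM. Pan-hematopoietic genes (6 of 7) summed to 107 to 135 FPKM in Control and 18.6 to 23.8 FPKM in HAND1_OE, with PTPRC (CD45) at 0.0227 FPKM or less throughout, and myeloid genes (4 of 4) to 79.6 to 103 and 6.88 to 10.7 FPKM. Fibroblast and mesenchyme genes were mixed. PDGFRB, LUM and POSTN were called higher (3 of 7). COL1A1 and COL1A2 had differences of -0.23 and -0.82 that did not pass (adjusted p = 0.520 and 0.123). The list summed to 349 to 431 FPKM in Control and 501 to 561 FPKM in HAND1_OE. On average its most abundant gene was COL1A2 in Control (148 FPKM) and COL3A1 in HAND1_OE (283 FPKM). COL3A1 was at 129 FPKM on average in Control, and its difference did not pass (adjusted p = 0.1004). The collagen genes were chosen after their values were seen.

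Other marker lists had few called genes. None was called in the lymphatic endothelial (3 tested), smooth muscle and pericyte (5), cardiac muscle (4), epithelial (6) or pluripotent (4) lists, and 1 of 3 trophoblast and amnion genes was called higher (TFAP2A, 1.13). The lymphatic markers PROX1 and LYVE1 were at 2.74 FPKM or less, so the VEGFC receptor FLT4 was read here in cells with little lymphatic signal. In bulk RNA, fewer cells of a type and less RNA per cell cannot be told apart, and the part of the lower blood signal and of the 3 called mesenchymal genes in the VEGF results was not tested. Set against CDH5 in the same library, VEGFA was at 0.159 and 0.147 in Control and at 0.409 and 0.312 in HAND1_OE. CDH5 itself differed little between the groups (0.157, limma adjusted p = 0.727). These ratios therefore nearly repeat the VEGFA values and do not test the mixture of cells. VEGFC, FLT4, NRP1 and KDR relative to CDH5 were lower in both HAND1_OE libraries, whereas PGF, NRP2, FLT1 and VEGFB overlapped.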

How the data were processed

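Total RNA of 2 Control and 2 HAND1_OE samples was sequenced after Illumina TruSeq preparation. The authors deposited a single table of values per gene and library, taken to be FPKM since they were fractional with unequal library sums. Submitters' processing notes name BWA, Bowtie, RSEM and hg19, without roles, but 55583 of the 55605 row IDs with the same version in GENCODE release 29 have its GRCh38 coordinates, so GRCh38 is used here with starts counted from 1. How reads shared between genes were handled is not given there. Whether counting used strand is not given in the sources used here; antisense genes sharing exons with NRP1, NRP2 and VEGFA were at 0.471 FPKM or less.

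Of 58365 rows, 45 Y copies and 91 rows that repeated a gene ID at a lower mean were dropped. Groups came from sample titles. Genes at 1 FPKM or more in at least 2 libraries were tested on log2(FPKM + 1) with limma (version 3.58.1, under R 4.3.3; trend on mean level; two-sided), with Benjamini-Hochberg adjustment over all 14622 genes and a threshold of 0.05. Differences on this scale understate changes of low genes. The code was tested on simulated data. The members, lists and tests were chosen with earlier results of these data known. The rule for named genes took all members, HAND1, VEGFD and up to 3 called genes per direction and list; it also took the leading genes of each marker list, of which most are given here as sums and counts. Alternatives were another pseudocount, 2 other filters, quantile and median-ratio scaling, no trend, a replicate block, each library left out, and a fold change of at least 2.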

Additional observations from a re-analysis of the deposited data

How the results depend on the processing

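Without the filter on low values (29860 genes tested), limma called 0 genes higher and 0 lower (1458 and 2352 at an unadjusted p under 0.05), 0 VEGF genes and 0 pathway genes were called, and HAND1 kept its difference of 5.20 with an adjusted p of 0.153. Leaving out a library gave 134 to 266 genes called higher and 137 to 309 lower, 0 to 1 VEGF genes higher and 0 lower, 3 to 6 pathway genes higher and 2 to 10 lower, and a HAND1 difference of 5.08 to 5.31. The KDR difference turned to 0.050 after median-ratio scaling, and that of VEGFB to -0.0014 without Control replicate 2; the VEGFB difference was 0.626 without Control replicate 1. VEGFA had an adjusted p under 0.05 in 9 of 11 alternatives, with differences of 1.19 to 1.53. With the replicate number as a block, 597 genes were called higher and 712 lower, 2 VEGF genes higher (VEGFA, adjusted p = 0.0096, and NRP2, adjusted p = 0.0379), and 13 pathway genes higher and 14 lower. Deviations of same-numbered libraries correlated at 0.383, a single value with 2 libraries per group, so the numbers are not shown to pair the samples. The cause of these shifts was not tested.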
